A study of Mus musculus with 6 samples.

Results

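Ribosome biogenesis genes and RNA polymerase I genes were followed in mouse cells that the labels call MIN6, a line from an insulinoma used as a model of pancreatic beta cells. The 40 genes were chosen by name, as rows of the deposited gene table, and all 40 were found among its 54532 genes. They encode subunits and factors of RNA polymerase I, proteins of nucleolar organisation, core proteins of the small nucleolar ribonucleoprotein particles (snoRNPs), and factors that assemble the small and the large ribosomal subunit. Total RNA was compared between 3 libraries labelled control and 3 labelled PP2Ac knockdown, PP2Ac being the catalytic subunit of the serine/threonine phosphatase PP2A. The titles mark the control libraries as shc and the knockdown libraries as sh2. The labels give no construct sequence, clone or time, and no lipid treatment for either group, although the title of the series concerns lipid damage to beta cells. No source states that the replicates were separate cultures, so the p-values set the group difference against the spread between these libraries, which may be technical.

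Ribosomes are built in the nucleolus. RNA polymerase I transcribes the ribosomal RNA genes into a long precursor, box C/D snoRNPs guide its ribose methylation, box H/ACA snoRNPs guide its pseudouridylation, and assembly factors cleave and fold it into the subunits of the ribosome. Many genes of the pathway are known targets of the transcription factor MYC, and demand for them is high in dividing and secretory cells. The libraries hold mRNA levels of these factors and do not measure rRNA synthesis or ribosome number.

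The targeted transcript was lower in the libraries labelled knockdown. Ppp2ca, the gene for the catalytic subunit's alpha form, had 42.5, 34.6 and 35.6 FPKM (fragments or reads per kilobase of gene, scaled for depth) in control and 10.1, 11.4 and 10.9 FPKM in knockdown (log2 fold change -1.70, SE 0.0917, limma adjusted p = 5.35e-06; two-sided exact permutation p = 0.1, the smallest that 3 against 3 allow). Depth was even, at 14614737 to 16030939 reads per library. Beta cell markers were nearly absent: of 16 listed, 14 had a mean FPKM below 1, and Ins1, Ins2, Nkx6-1 and Slc2a2 were among the 10 listed at 0 in all 6 libraries. Their summed FPKM was 2.91 to 4.70 in control and 8.19 to 9.85 in knockdown. The 23 markers of other cell types summed to 1147 to 1335 FPKM in control and 1379.7 to 1539 in knockdown. They were led by Vim, Spp1, Col1a1 and Col3a1, and 7 of them were at 0 throughout. The labels name a beta cell line, but these values do not show beta cell identity. The origin of the cells was not tested. Mitochondrially encoded genes held 2.74% to 3.50% of the reads of control libraries and 1.26% to 1.38% of those of knockdown libraries, and 21572 ± 138 genes had a read in control against 19768 ± 200.4 in knockdown (SD, n = 3). In bulk RNA, fewer cells of a type and less RNA per cell cannot be told apart.

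All 40 genes were expressed and were tested: each had a mean FPKM of at least 1. In control the levels ran from Npm1 (255 FPKM) and Nhp2 (101) down to Wdr12 (6.75) and Polr1e (4.39). In knockdown 12 of the 40 were higher, 14 were lower and 14 did not pass a limma adjusted p of 0.05. Of all 11652 genes tested, 62.4% passed: 33.3% were higher and 29.1% lower in knockdown. Counts given below for role groups and lists are to be read against these shares. The shares among the 40 genes, 30.0% higher and 35.0% lower, lay near that background. The median log2 fold change was -0.044 for the 40 genes and 0.027 for all tested genes. None of the 40 changed by 1 or more on the log2 scale, and their knockdown means lay between 50.9% of control for Nop58 and 139.7% of control for Nop16. The groups of 3 libraries did not overlap for 30 of the 40 genes, 15 above and 15 below control, against 68.1% of all tested genes, 36.4% above and 31.7% below.

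**Figure D1:**
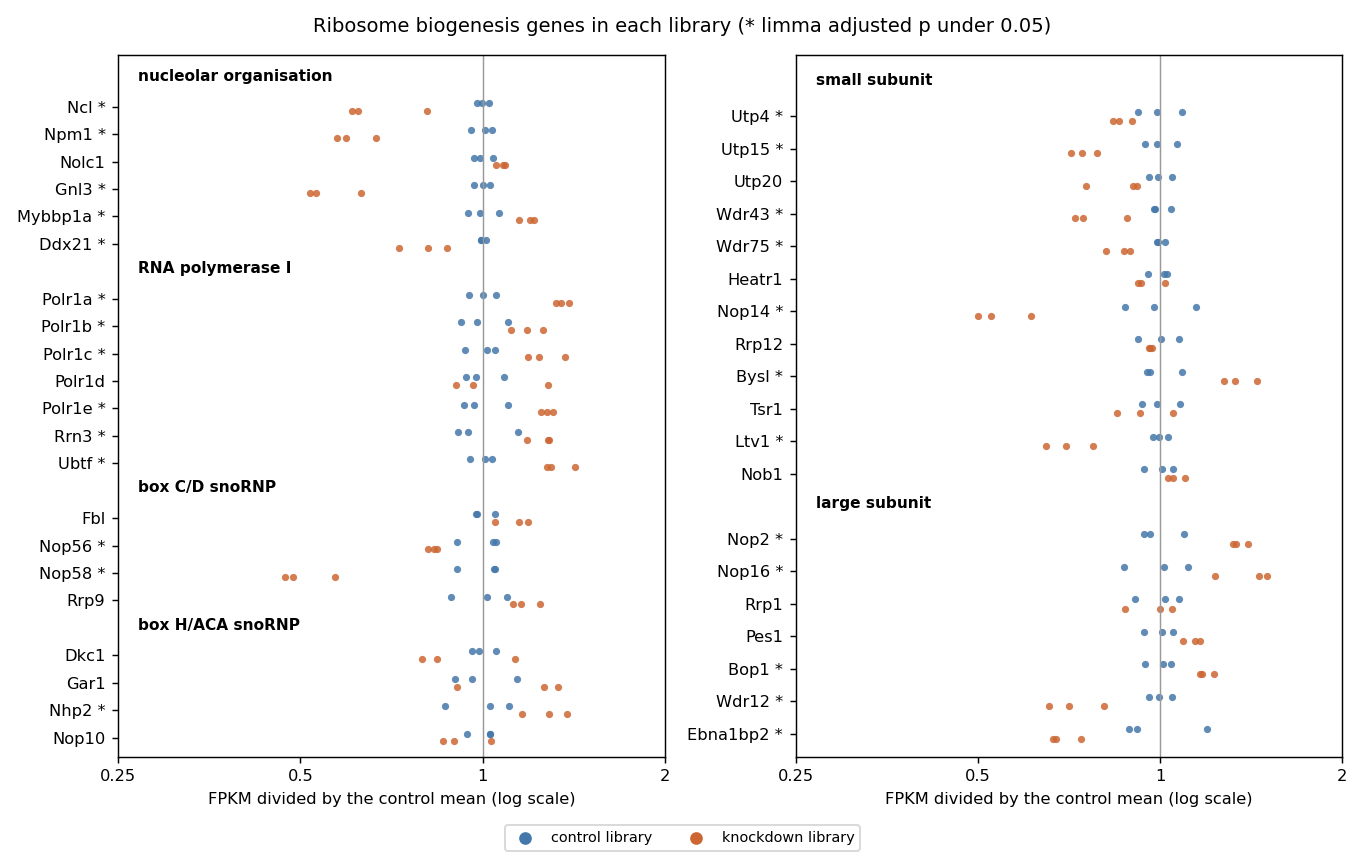
FPKM of each of the 40 genes in each of the 6 libraries, divided by that gene's control mean and drawn on a log2 axis, with control libraries in blue, knockdown libraries in orange and genes ordered by role. An asterisk marks a limma adjusted p under 0.05. RNA polymerase I genes other than Polr1d lie to the right of the control mean in every knockdown library, and Nop58, Nop14, Gnl3 and Npm1 lie farthest to the left.

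The 3 members with the largest falls came from different role groups. The promoters of Nop58, Nop14 and Gnl3, the 3 genes that fell most, are printed to show the sequence upstream of the start, and those of Rrn3 and Nop2 because they carry the E-box that MYC and MAX bind (the last 2 were chosen after their values and sites were seen). Each runs from 230 to 41 bases before the start, from RefSeq on GRCm38.p6, read along the gene's strand, with CACGTG in capitals. The Nop58 stretch is chr1:59684776-59684965, plus strand, Nop14 is chr5:34660189-34660378, minus strand, Gnl3 is chr14:31019172-31019361, minus strand, Rrn3 is chr16:13780469-13780658, plus strand and Nop2 is chr6:125131653-125131842, plus strand.
Nop58: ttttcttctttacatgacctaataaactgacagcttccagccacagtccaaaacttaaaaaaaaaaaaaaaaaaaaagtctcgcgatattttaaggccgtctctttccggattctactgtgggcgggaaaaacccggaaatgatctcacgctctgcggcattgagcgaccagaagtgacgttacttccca
Nop14: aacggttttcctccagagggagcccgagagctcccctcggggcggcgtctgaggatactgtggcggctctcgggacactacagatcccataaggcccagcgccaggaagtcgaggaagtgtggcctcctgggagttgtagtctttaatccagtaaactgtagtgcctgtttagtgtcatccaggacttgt
Gnl3: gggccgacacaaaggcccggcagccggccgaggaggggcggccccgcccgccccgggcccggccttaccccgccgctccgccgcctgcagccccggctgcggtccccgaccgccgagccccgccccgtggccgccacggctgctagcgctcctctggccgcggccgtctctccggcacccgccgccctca
Rrn3: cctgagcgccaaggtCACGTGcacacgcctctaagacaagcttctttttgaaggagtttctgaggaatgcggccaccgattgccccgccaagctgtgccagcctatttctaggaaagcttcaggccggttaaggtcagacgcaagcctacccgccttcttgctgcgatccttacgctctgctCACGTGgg
Nop2: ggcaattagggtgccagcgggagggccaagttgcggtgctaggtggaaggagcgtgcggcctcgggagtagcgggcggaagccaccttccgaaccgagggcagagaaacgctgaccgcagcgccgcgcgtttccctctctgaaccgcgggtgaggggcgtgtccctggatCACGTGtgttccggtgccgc
The motif was searched as CACGTG, which reads the same on both strands, from 250 bases before to 50 bases after the start. Rrn3 held it at positions -215 and -48 and Nop2 at -60, counted from the start, and none of the windows of Nop58, Nop14 and Gnl3 held it. Of the 36 members in the promoter table, 9 (25%) had the motif, against 1011 of 8234 tested genes (12.3%) and 2187 of 27025 genes in the promoter table (8.09%). By direction, 3 of 11 members that were higher, 3 of 13 that were lower and 3 of 12 that did not pass had it. The members with it were Mybbp1a, Rrn3 and Nop2 among the higher, Ltv1, Utp4 and Wdr43 among the lower, and Pes1, Tsr1 and Utp20 among the rest. A match describes letters and does not show binding. Fbl, Npm1, Bop1 and Rrp12 had no entry.

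Of the 7 RNA polymerase I members, 6 rose in knockdown, none fell and 1 did not pass, with a median log2 fold change of 0.31. Polr1a (ENSMUSG00000049553, chr6:71909053-71984935, plus strand, GRCm38), which encodes the largest subunit, had 17.3, 19.2 and 18.3 FPKM in control and 25.4, 24.6 and 24.1 FPKM in knockdown (log2 fold change 0.42, SE 0.0666, limma adjusted p = 0.000836). All knockdown libraries were above all control libraries. Ubtf (ENSMUSG00000020923, chr11:102304560-102319742, minus strand), which encodes the factor that binds ribosomal DNA and recruits the polymerase, had 35.3, 34.4 and 32.5 FPKM in control and 43.5, 48.4 and 44.2 in knockdown (log2 fold change 0.40, SE 0.0708, limma adjusted p = 0.00139), again with no overlap. Rrn3, which encodes the initiation factor TIF-IA that links the polymerase to its promoter, rose from 18.3 ± 2.33 to 23.0 ± 1.09 FPKM (SD, n = 3; adjusted p = 0.0182 by limma). The second largest subunit gene Polr1b rose from 8.37 ± 0.770 to 9.92 ± 0.596 FPKM, just past the threshold (limma adjusted p = 0.0461). Polr1e, which encodes a subunit of the polymerase I specific heterodimer, rose from 4.39 ± 0.390 to 5.61 ± 0.126 FPKM (limma adjusted p = 0.0118). Polr1c and Polr1d encode the subunit pair shared with RNA polymerase III. Polr1c rose from 28.2 ± 1.68 to 35.6 ± 2.56 FPKM (limma adjusted p = 0.00662), while Polr1d had 27.2, 24.4 and 23.5 FPKM in control and 22.6, 24.1 and 32.1 in knockdown (log2 fold change 0.055, SE 0.127, limma adjusted p = 0.723). For Polr1d the groups overlapped, and knockdown library 3 was the highest of the 6.

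The number of these rises rests on the scaling. When mitochondrially encoded genes, rRNA and Gm23935, a short abundant gene, were removed and each library was set back to its own FPKM sum, the median of all tested genes moved from 0.027 to -0.12, and 2 of the 7 genes passed, Polr1a (log2 fold change 0.27, limma adjusted p = 0.0109) and Ubtf (0.25, adjusted p = 0.0333). The group median was then 0.17, still above that of all genes. Polr1b lost its call in 11 of 18 alternative settings and Rrn3 in 7, and 4 of the 7 passed without control library 3 and without knockdown library 1. Under the same removal the other lists of polymerase genes shifted too, to 2 higher and 9 lower of 14 other RNA polymerase I genes, and 5 higher and 10 lower of 22 RNA polymerase III genes, whose median turned to -0.064. Rises became fewer in other lists as well, at 1 of 7 large subunit members, 6 of 51 other large subunit genes, 2 of 43 other small subunit genes, 2 of 10 snoRNP assembly genes and 2 of 24 exosome and nuclease genes.

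The other RNA polymerase I genes, listed from textbook knowledge, had more falls than rises. Of 14 tested, 2 were higher, 5 lower and 7 without a call, with a median of -0.22. Twistnb, which encodes a stalk subunit that contacts Rrn3, had 7.69, 6.67 and 8.71 FPKM in control and 3.39, 3.83 and 3.65 in knockdown (log2 fold change -0.91, SE 0.0998, limma adjusted p = 0.000123). Cd3eap, which encodes the partner of Polr1e, went the other way, from 11.6 ± 0.549 to 17.8 ± 1.68 FPKM (limma adjusted p = 0.000454), and, like Taf1b, Taf1c, Polr3a and Ruvbl2 among the genes described next, was named after its value was seen. Polr2k, a small subunit common to the 3 nuclear RNA polymerases, had 29.5, 23.6 and 20.4 FPKM in control and 8.08, 11.3 and 9.44 in knockdown (log2 fold change -1.26, SE 0.148, limma adjusted p = 0.000170), a larger fall than that of any of the 40 genes. Taf1d, a subunit of the promoter selectivity factor, had 12.4, 13.3 and 13.4 FPKM in control and 6.93, 6.33 and 8.37 in knockdown (log2 fold change -0.78, SE 0.0980, limma adjusted p = 0.000233). Another subunit of that factor, Taf1c, rose from 6.06 to 9.22 FPKM and Taf1b fell from 5.70 to 4.06 FPKM (limma adjusted p = 0.000725 and 0.00235). Genes for the same enzyme and its initiation factors changed in opposite directions.

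RNA polymerase III, which makes transfer RNA and the smallest ribosomal RNA, gave 8 of 22 genes higher, 6 lower and 8 without a call (median 0.084). These shares, 36.4% higher and 27.3% lower, lay near those of all tested genes, 33.3% and 29.1%. Gtf3a, the factor for the smallest ribosomal RNA gene, had 7.70, 7.74 and 9.25 FPKM in control and 14.8, 16.8 and 16.4 in knockdown (log2 fold change 0.88, SE 0.0887, limma adjusted p = 7.97e-05). Polr3e rose from 6.6 ± 0.335 to 11.0 ± 0.134 FPKM and Gtf3c1 from 11.5 ± 0.211 to 16.5 ± 0.501 FPKM (limma adjusted p = 8.12e-05 and 0.000265). The catalytic subunit gene Polr3a fell from 8.21 to 6.14 FPKM, so for the largest subunit the direction was opposite to that of Polr1a; the difference between the 2 genes was not tested.

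Genes for proteins of nucleolar organisation were mostly lower. Of 6 members, 4 fell, 1 rose and 1 did not pass (median -0.44). Gnl3 (ENSMUSG00000042354, chr14:31012433-31019152, minus strand), which encodes nucleostemin, a nucleolar GTPase, had 22.4, 21.8 and 21.1 FPKM in control and 11.5, 11.3 and 13.7 FPKM in knockdown (log2 fold change -0.79, SE 0.0835, limma adjusted p = 9.97e-05). Npm1 (ENSMUSG00000057113, chr11:33152287-33163206, minus strand), which encodes nucleophosmin, a chaperone of the granular nucleolus, had 257, 245 and 264 FPKM in control and 152, 147 and 170.4 in knockdown (log2 fold change -0.71, SE 0.0800, limma adjusted p = 0.000138). For both genes every knockdown library was below every control library. Ncl, which encodes nucleolin, fell from 83.1 ± 1.76 to 56.6 ± 9.35 FPKM (SD, n = 3), and the RNA helicase gene Ddx21 from 53.1 ± 0.581 to 42.7 ± 3.91 FPKM (limma adjusted p = 0.00235 and 0.00863). The exception was Mybbp1a, a nucleolar repressor of transcription factors, which rose from 95.0 ± 5.64 to 113 ± 3.26 FPKM (limma adjusted p = 0.0155); this call did not hold in 5 of 18 alternative settings. Nolc1, which encodes a scaffold of the nucleolus and Cajal body, had 48.1, 50.6 and 47.0 FPKM in control and 52.8, 51.1 and 52.5 in knockdown (log2 fold change 0.10, SE 0.0627, limma adjusted p = 0.191) and did not pass, although the groups did not overlap. The 6 genes together made up 0.274% ± 0.00124 of control reads and 0.218% ± 0.0183 of knockdown reads (SD, n = 3).

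Among box C/D genes 2 of 4 members fell, none rose and 2 did not pass (median -0.047). The box C/D core consists of the methyltransferase fibrillarin (Fbl) and its scaffold proteins NOP56 and NOP58. Nop58 (ENSMUSG00000026020, chr1:59684971-59719044, plus strand) had 20.0, 17.3 and 20.0 FPKM in control and 9.28, 9.01 and 10.9 in knockdown (log2 fold change -0.91, SE 0.0925, limma adjusted p = 8.69e-05), the largest fall of the 40 genes. Nop56 (ENSMUSG00000027405, chr2:130274430-130279313, plus strand) had 88.8, 90.0 and 77.5 FPKM in control and 71.1, 71.9 and 69.5 in knockdown (log2 fold change -0.26, SE 0.0761, limma adjusted p = 0.0159), a smaller fall with no overlap. The call for Nop56 was lost without control library 1 and without control library 2 (limma adjusted p = 0.0514 and 0.0611). Fbl had 38.5, 41.3 and 38.5 FPKM in control and 41.3, 46.9 and 45.3 in knockdown (log2 fold change 0.17, SE 0.0728, limma adjusted p = 0.0729) and did not pass, and its groups overlapped narrowly. The ratio of Nop58 to Fbl went from 0.519, 0.419 and 0.520 in control to 0.225, 0.192 and 0.240 in knockdown. The groups did not overlap (two-sided exact permutation p = 0.1, the smallest that 3 against 3 allow), and the ratio was chosen after the values were seen, so it is given as a description. Rrp9, a protein of the box C/D particle that guides precursor cleavage, went from 21.9 ± 2.31 to 25.7 ± 1.38 FPKM and did not pass (limma adjusted p = 0.0529), though it did in 5 of 18 alternative settings.

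Box H/ACA core genes, whose products include the pseudouridine synthase dyskerin, showed 1 rise and no fall among 4 members (median 0.049). Nhp2 (ENSMUSG00000001056, chr11:51619735-51623714, plus strand) had 111, 104 and 87.2 FPKM in control and 117, 139 and 129.6 in knockdown (log2 fold change 0.35, SE 0.105, limma adjusted p = 0.0185), without overlap, and lost its call in 6 of 18 alternative settings. Nop10 had 41.4, 41.5 and 38.0 FPKM in control and 36.1, 41.5 and 34.6 in knockdown (log2 fold change -0.11, SE 0.0840, limma adjusted p = 0.295), with overlapping groups. The dyskerin gene Dkc1 went from 14.2 ± 0.679 to 13.1 ± 2.58 FPKM and Gar1 from 38.2 ± 4.76 to 44.6 ± 8.72 FPKM (SD, n = 3), neither past the threshold (limma adjusted p = 0.400 and 0.261). Knockdown library 3 lay above the other two for Dkc1, and knockdown library 1 below them for Gar1: Dkc1 had 11.9, 11.3 and 16 FPKM in knockdown and Gar1 34.6, 50.9 and 48.3. With knockdown library 3 left out Dkc1 was called lower (limma adjusted p = 0.0201). With knockdown library 1 left out Gar1 was called higher (limma adjusted p = 0.0237). Each gene was called in only that 1 of the 18 alternative settings. The library left out was the one that differed most, so neither call is read as a change.

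**Figure D2:**
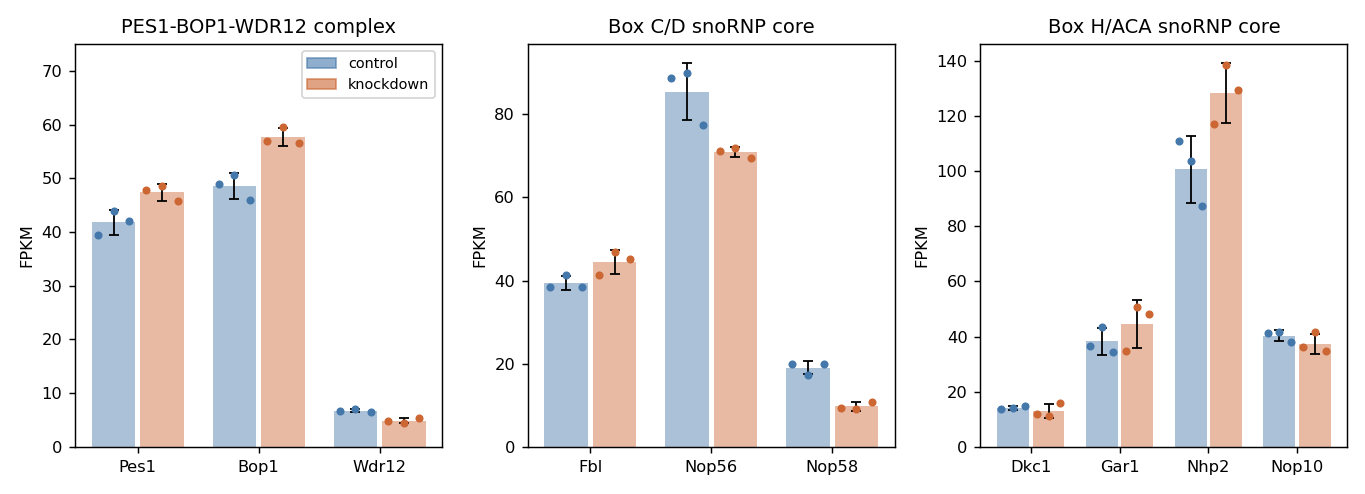
FPKM of partner genes in the complex of PES1, BOP1 and WDR12, in the box C/D core and in the box H/ACA core, with bars at the mean of 3 libraries, error bars of 1 SD and a point per library. Each panel has its own axis from 0. Wdr12 is lower in knockdown while Pes1 and Bop1 are above control in every library, and Nop58 stands at 50.9% of control while Fbl is at 113%.

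Genes for small subunit assembly were mostly lower or did not pass. Of 12 members, 6 fell, 1 rose and 5 did not pass (median -0.21). Nop14 (ENSMUSG00000036693, chr5:34638536-34660148, minus strand), a factor of the small subunit processome that folds the precursor, had 58.9, 45.1 and 50.3 FPKM in control and 27.1, 25.8 and 31.5 in knockdown (log2 fold change -0.85, SE 0.113, limma adjusted p = 0.000319). Ltv1 (ENSMUSG00000019814, chr10:13178140-13193168, minus strand), which acts late and helps the small subunit mature and leave the nucleus, had 23.6, 23.1 and 24.4 FPKM in control and 16.6, 15.4 and 18.4 in knockdown (log2 fold change -0.48, SE 0.0781, limma adjusted p = 0.000930). Neither gene showed overlap between the groups. The processome genes Utp15, Wdr43, Wdr75 and Utp4 also fell: Utp15 from 10.3 ± 0.641 to 7.66 ± 0.388 FPKM, Wdr43 from 39.4 ± 1.42 to 30.9 ± 3.41, Wdr75 from 17.9 ± 0.305 to 15.4 ± 0.733 and Utp4 from 32.1 ± 2.71 to 27.7 ± 1.03 (SD, n = 3; limma adjusted p = 0.00251, 0.00809, 0.0222 and 0.0492). The call for Utp4 was lost in 8 of 18 alternative settings and that for Wdr75 in 3. Bysl, which encodes bystin, a late small subunit factor, was the only member of this group to rise, from 16.2 ± 1.21 to 21.9 ± 1.42 FPKM (limma adjusted p = 0.00224), and it lies opposite Ccnd3, an expressed gene on the other strand. Rrp12, a factor for export of the subunits, had 22.4, 24.0 and 20.5 FPKM in control and 21.4, 21.7 and 21.5 in knockdown (log2 fold change -0.049, SE 0.0729, limma adjusted p = 0.579). Heatr1 (13.6 to 13.0 FPKM), Tsr1 (16.2 to 15.2), Nob1, the endonuclease gene of the last cleavage (26.4 to 28.0), and Utp20 (24.0 to 20.6) also did not pass. For Utp20 the groups did not overlap, and it passed in 7 of 18 alternative settings.

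Among 43 other small subunit genes, 7 were higher, 16 lower and 20 without a call (median -0.055). These shares were 37.2% lower and 16.3% higher, against 29.1% and 33.3% of all tested genes. Fcf1 had 37.2, 35.0 and 37.1 FPKM in control and 24.4, 21.8 and 24.0 in knockdown (log2 fold change -0.62, SE 0.0701, limma adjusted p = 0.000140). Imp3, of the early processome, fell from 92.0 ± 1.56 to 61.1 ± 3.89 FPKM, and the helicase gene Ddx52 from 22.4 ± 1.33 to 14.2 ± 0.870 FPKM (limma adjusted p = 0.000178 and 0.000204).

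Large subunit genes moved both ways: 3 of 7 rose, 2 fell and 2 did not pass (median 0.18). These shares, 42.9% higher and 28.6% lower, lay near those of all tested genes, 33.3% and 29.1%. Nop16 (ENSMUSG00000025869, chr13:54584185-54590090, minus strand), which encodes a component of early large subunit particles, had 37.1, 33.9 and 29.1 FPKM in control and 41.1, 50.1 and 48.6 in knockdown (log2 fold change 0.47, SE 0.109, limma adjusted p = 0.00549). Nop2, an rRNA methyltransferase gene, rose from 62.8 ± 5.34 to 84.8 ± 2.51 FPKM (SD, n = 3; limma adjusted p = 0.00154). In the opposite direction Ebna1bp2 (ENSMUSG00000028729, chr4:118620799-118627776, plus strand), which encodes a large subunit assembly factor, had 42.2, 31.2 and 32.2 FPKM in control and 23.4, 23.7 and 26.1 in knockdown (log2 fold change -0.50, SE 0.115, limma adjusted p = 0.00536). Control library 1 was well above the other two control libraries for that gene. The products of Pes1, Bop1 and Wdr12 form a complex needed for large subunit maturation. Bop1 rose from 48.6 ± 2.42 to 57.7 ± 1.63 FPKM (limma adjusted p = 0.0123), Wdr12 fell from 6.75 ± 0.30 to 4.88 ± 0.517 FPKM (limma adjusted p = 0.00382), and Pes1 went from 41.8 ± 2.32 to 47.4 ± 1.5 FPKM and did not pass (limma adjusted p = 0.0513). The ratio of Wdr12 to Bop1 was 0.137, 0.139 and 0.141 in control and 0.0839, 0.0743 and 0.0962 in knockdown, again without overlap (two-sided exact permutation p = 0.1) and again chosen after the values were seen. Without mitochondrially encoded genes, rRNA and Gm23935 the calls for Nop16 and Bop1 were lost (limma adjusted p = 0.0526 and 0.362). Rrp1 had 60.1, 57.1 and 50.9 FPKM in control and 49.0, 58.7 and 56.0 in knockdown (log2 fold change -0.038, SE 0.0931, limma adjusted p = 0.739), with overlapping groups.

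In a list of other large subunit factors, 12 of 51 genes were higher, 25 lower and 14 without a call (median -0.20), or 49.0% lower against 29.1% of all genes tested. Rpf1 had 9.98, 9.36 and 10.2 FPKM in control and 4.39, 4.28 and 5.05 in knockdown (log2 fold change -0.97, SE 0.0804, limma adjusted p = 3.32e-05). Rbm28 fell from 35.5 ± 1.10 to 22.3 ± 0.163 FPKM and the GTPase gene Gtpbp4 from 10.7 ± 1.27 to 5.70 ± 0.176 FPKM (limma adjusted p = 5.95e-05 and 0.000134).

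**Figure D3:**
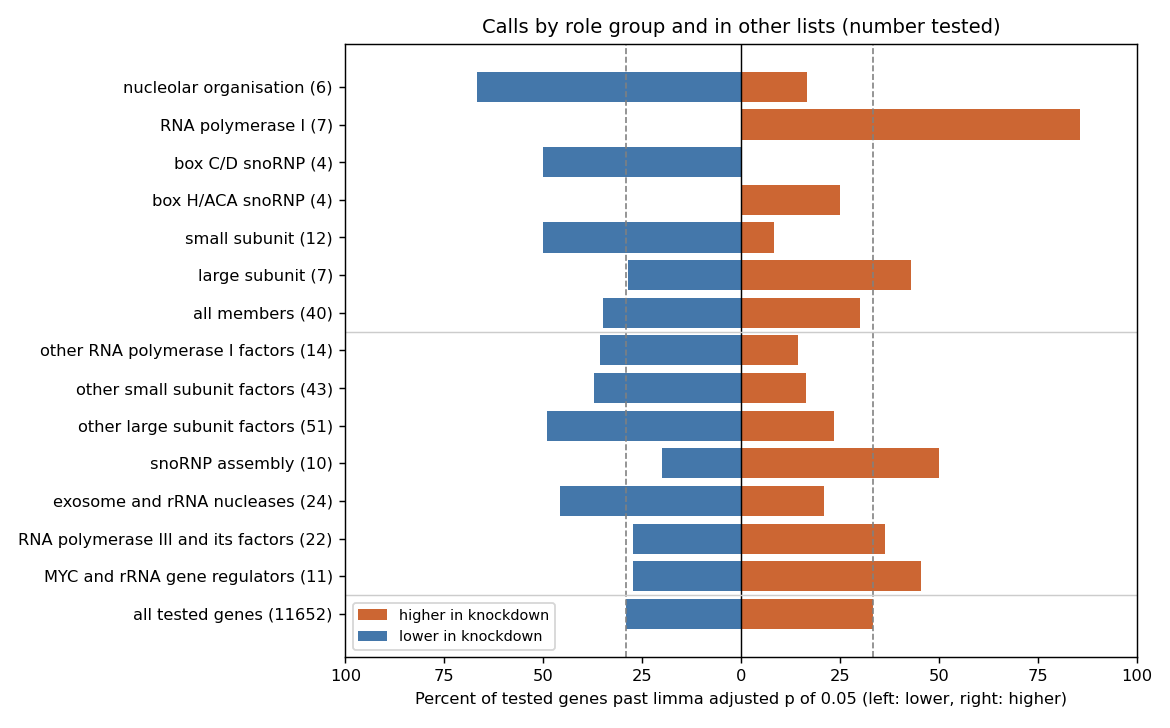
Percent of tested genes higher (orange, right) and lower (blue, left) in knockdown at a limma adjusted p under 0.05, for the 6 role groups, all 40 genes, the other lists of the pathway and all 11652 tested genes, with the number tested in parentheses. Dashed lines mark the shares among all tested genes, 33.3% higher and 29.1% lower. The RNA polymerase I bar, of 7 genes, reaches 85.7% higher with none lower, and the nucleolar bar, of 6 genes, reaches 66.7% lower. The bar of the 14 other RNA polymerase I genes reaches 14.3% higher and 35.7% lower.

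Factors that assemble snoRNPs were higher more often than lower: 5 of 10 rose, 2 fell and 3 did not pass (median 0.15). Pih1d1, a subunit of the R2TP chaperone complex, had 21.0, 29.0 and 24.0 FPKM in control and 39.3, 42.3 and 38.1 in knockdown (log2 fold change 0.68, SE 0.113, limma adjusted p = 0.00101). Its partners Ruvbl1 and Rpap3 rose from 43.3 ± 4.35 to 63.9 ± 4.81 and from 11.3 ± 0.399 to 13.6 ± 0.365 FPKM (limma adjusted p = 0.00113 and 0.00903), and Ruvbl2 from 44.8 to 56.0 FPKM. For the exosome and other rRNA nucleases, 5 of 24 genes were higher, 11 lower and 8 without a call (median -0.12). Skiv2l2, the helicase gene of the nuclear exosome, had 12.8, 11.8 and 13.2 FPKM in control and 6.90, 6.41 and 7.55 in knockdown (log2 fold change -0.78, SE 0.0801, limma adjusted p = 9.03e-05). RNase MRP and RNase P share most of their proteins, and among these Rpp30 fell from 27.0 ± 2.24 to 15.1 ± 1.63 FPKM while Pop1 rose from 6.85 ± 0.751 to 12.6 ± 1.02 FPKM (limma adjusted p = 0.000170 and 0.000166).

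MYC, the best known activator of this pathway, was lower at the mRNA level. Myc had 58.5, 57.2 and 57.5 FPKM in control and 43.9, 40.1 and 41.5 in knockdown (log2 fold change -0.46, SE 0.0637, limma adjusted p = 0.000406), and its partner Max had 17.7, 15.9 and 15.5 in control and 13.6, 14.0 and 13.7 in knockdown (log2 fold change -0.23, SE 0.0710, limma adjusted p = 0.0204). Mxi1, a MAX partner that represses MYC targets, rose from 4.78 ± 0.682 to 7.91 ± 0.667 FPKM, and Phf2, a histone demethylase gene, from 17.2 ± 0.484 to 26.7 ± 1.26 FPKM (limma adjusted p = 0.00104 and 0.000119). Other repressive MAX partners did not rise: Mnt fell from 14.6 to 12.8 FPKM (limma adjusted p = 0.0486). Mxd1 went from 1.84 to 1.65 FPKM and did not pass (limma adjusted p = 0.452). Mnt and Mxd1 were named after their values were seen. In this list 5 of 11 genes were higher, 3 lower and 3 without a call (median 0.086), and Mycn was listed at 0 in all 6 libraries. The Max log2 fold change lost its call without control library 1 and without knockdown library 1 (limma adjusted p = 0.0670 and 0.0635), where 1 gene of the list was lower.

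Several members hold small nucleolar RNA genes within their bounds. By the positions in the table, 21 snoRNA genes lie inside 7 of the 40 genes on the same strand: Ncl, Gnl3, Nop56, Nop58, Dkc1, Wdr43 and Tsr1. Of these 7 hosts, 5 fell, none rose and 2 did not pass (median -0.35). The 33 members without a snoRNA gene had 12 higher, 9 lower and 12 without a call (median 0.10). Among all 209 tested genes that hold a snoRNA gene, 33.0% were lower and 22.5% higher, with a median of -0.075. The snoRNAs themselves were barely read: 10 of the 21 had no read in any library and none had more than 14 reads in a library. Snord70, in Nop58, had the most, with 11, 14 and 8 reads in control and 3, 3 and 5 in knockdown. Of the 8 that could be tested, 4 were lower and none higher, at read numbers too low to give a size.

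Annotated gene length also varied among the members, and FPKM depends on it. The deposited length of some genes far exceeds that of a single coding transcript. Nop58 has 10758 bases although its longest principal coding transcript in GENCODE M21 has 1713, a ratio of 6.28. The ratio was also above 3 for Fbl (3.52) and Gnl3 (3.13). If such genes are expressed mainly as that transcript, their levels relative to other genes are understated. Which transcripts the cells express was not measured. Over all tested coding genes with a ratio above 3, 35.4% were lower and 23.7% higher, against 27.1% lower and 39.5% higher where it was at most 1.5. Among the members 8 of 28 in the latter class fell and 11 rose. Of the 3 members with a ratio above 3, 2 fell and none rose. The part of transcript structure in the falls of Nop58 and Gnl3 was not tested. The strand setting is not given in the sources used here. By gene bounds, introns included, 12 members overlap an expressed gene on the opposite strand. Among them are Gnl3 with Pbrm1, Nop56 with Idh3b, Nhp2 with Rmnd5b and Polr1a with Gm26628. If the libraries were unstranded, reads from the shared stretch of such pairs could not be told apart. How many reads this concerns was not measured. The table names pseudogenes of Npm1, Fbl, Nop56 and Nop10, which makes the values of these 4 uncertain. Only pseudogenes described by the full name of a member were counted, so other members may be affected too.

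Within the knockdown group the order of the libraries differed between the genes that fell and those that rose. Of the 14 genes that fell, knockdown library 2 was the lowest of its group for 11 and knockdown library 3 the highest for 10. Of the 12 genes that rose, knockdown library 2 was the highest for 9. Knockdown library 2 was also the highest for 8 of the 14 genes that did not pass. The control libraries were ordered too: among the 12 rises control library 2 was the highest for 7 and control library 3 the lowest for 7. The order over all tested genes was not counted. Ncl shows the spread, with 51.8, 50.6 and 67.3 FPKM in the knockdown libraries against 85.0, 81.5 and 82.9 in control. Over the 18 alternative settings 11 of the 14 falls and 4 of the 12 rises kept their call throughout. The falls were Npm1, Ncl, Gnl3, Ddx21, Nop58, Nop14, Ltv1, Utp15, Wdr43, Wdr12 and Ebna1bp2, and the rises were Polr1a, Ubtf, Bysl and Nop2. Settings that rescaled the values lowered the members' median log2 fold change or left it nearly unchanged. From -0.044 it went to -0.20 without mitochondrially encoded genes, rRNA and Gm23935, and to -0.14 with protein-coding genes only. With a library left out it ran from -0.089 to -0.0044. Such downward shifts favour falls over rises, so the counts kept do not compare the robustness of falls and rises.

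**Figure D4:**
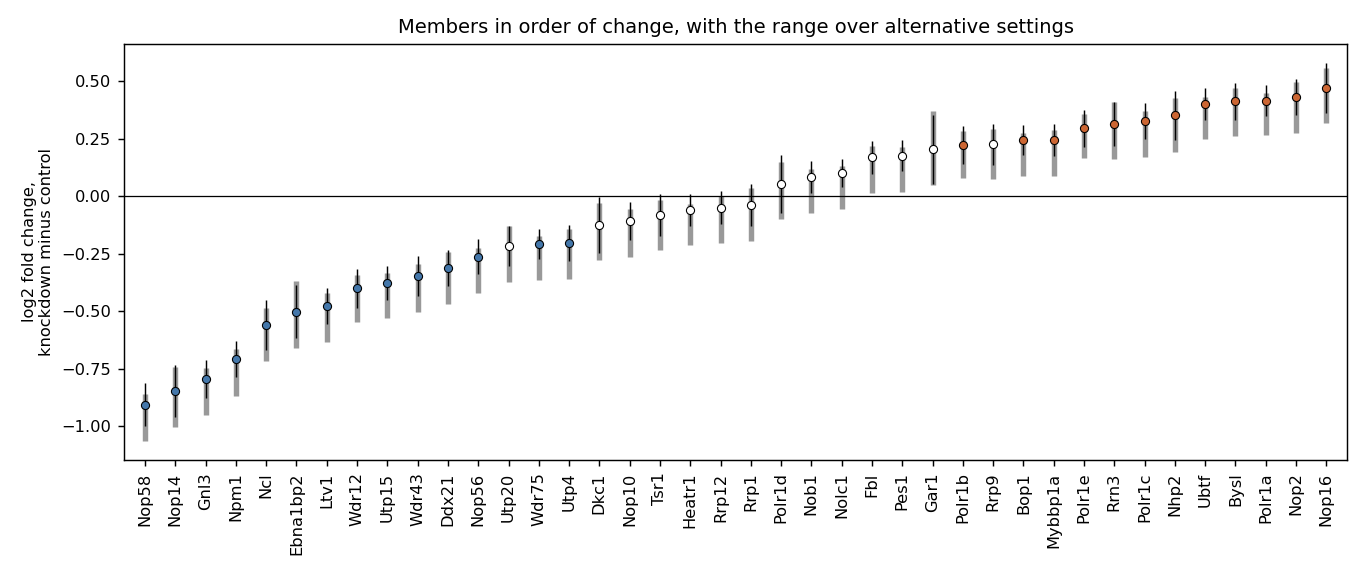
Log2 fold change (knockdown minus control) of the 40 genes in order of size, with SE as thin bars and the range over the alternative settings as grey bars. Blue points are lower, orange points higher and white points not past a limma adjusted p of 0.05. Genes from Nop58 to Utp4 stay below 0 and those from Polr1b to Nop16 above 0 under each setting.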

How the data were processed

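RNA sequencing of 6 mouse libraries, 3 control and 3 PP2Ac knockdown, was deposited by the authors as a table of FPKM values for 54532 Ensembl genes with their annotation, per the file headers. Builds GRCm38 and mm10 are named in the submitters' processing notes; no aligner, counter or strand setting is named (not given in the sources used here). FPKM times gene length was a whole multiple of a step (within 0.01) in 100.0% of the values above 0, which gave 14614737 to 16030939 reads. Median-of-ratios size factors of the deposited columns were 1 in each library, so that scaling was already present in the values. The setting with this scaling, 1 of the 18 alternatives, therefore repeats the main fit and was bound to keep every call. The positions of 38 of the 40 genes matched GENCODE M21 exactly.

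limma 3.58.1 in R 4.3.3 (eBayes with trend) was fitted to log2(FPKM + 1) for the 11652 genes averaging 1 FPKM or more, with Benjamini-Hochberg adjustment over all of them; an adjusted p under 0.05 was called. Log2 fold changes give knockdown minus control and understate the change of low genes. The fit was run on simulated data in which a small set of genes was changed. That differs from these data, where 62.4% of tested genes passed, so it does not bear on the choice of scaling. Alternatives were pseudocounts, filters, scalings, a robust fit, limma voom on recovered reads, a block on replicate number and the omission of each library in turn; FPKM rebuilt on library totals was added after seeing the data.

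The 40 genes and the lists were chosen with earlier results of these data known. All 40 are named. All 6 values are given for the 2 largest changes past the threshold and the smallest change in each role group, and other lists give up to 3 genes with the smallest p and a mean FPKM of at least 5, with Myc, Max and Ppp2ca always given. Python 3.11.15, pandas 2.3.3 and matplotlib 3.10.9 were used for tables and plots.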

Additional observations from a re-analysis of the deposited data

How the results depend on the processing

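The count of genes lower in knockdown was 11 to 17 under the 18 alternative settings, against 14. The count of higher genes was within 1.5 times of 12 in all settings but 2: it was 7 with protein-coding genes only and 4 without mitochondrially encoded genes, rRNA and Gm23935. The median log2 fold change of the 40 genes, -0.044, moved to -0.14 and -0.20 under these and to -0.12 with quantile normalization. The median of all genes was then -0.027, -0.12 and 0.0037. The median of the 40 genes minus that of all genes was -0.070 as reported and -0.11, -0.084 and -0.12 under these 3. Over all 18 settings it was negative and ran from -0.023 with no filter on low values to -0.13 under the stricter filter of 5 FPKM. Among settings without 1 library it ran from -0.028 without knockdown library 1 to -0.12 without control library 3. Leaving out 1 library gave 8 to 12 higher genes, 11 to 15 lower genes and a median of -0.089 to -0.0044. The count of 8 was without control library 3, where Mybbp1a, Polr1b, Rrn3 and Nhp2 lost their calls. No called gene changed direction in any setting. Ppp2ca was lower in each. With a mean FPKM of at least 5 Polr1e was not tested. Libraries with the same number did not all deviate together (correlations of -0.011, 0.16 and 0.052 for numbers 1, 2 and 3), so the numbers were not taken as pairs. With the replicate block 13 genes were higher and 15 lower, and the median stayed at -0.044. The shallowest of the 40 genes, Polr1e, had 273 reads on average in control. With 3 libraries a group, small changes such as those of Fbl, Pes1, Rrp9 and Utp20 lie at the threshold.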
